A study of Mus musculus with 6 samples.

Results

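AMP-activated protein kinase (AMPK) and the kinases that switch it on were examined at the transcript level in mouse quadriceps lacking estrogen receptor alpha. The set comprised 9 genes, taken from the deposited gene table by symbol out of 37477 Ensembl gene IDs, and all 9 were found under a single ID each. They were the catalytic subunits Prkaa1 and Prkaa2, the scaffold subunits Prkab1 and Prkab2, the nucleotide-binding subunits Prkag1, Prkag2 and Prkag3, and the upstream kinases Stk11 (LKB1) and Camkk2. RNA sequencing libraries came from quadriceps, the large front thigh muscle, of C57BL/6 mice at 20 weeks of age. The knockout (KO) group held 3 libraries from mice with a muscle-specific, homozygous loss of estrogen receptor alpha, which the study calls MERKO, and the wild-type (WT) group held 3 libraries. The labels name neither the promoter that drove the deletion nor the exons removed, and they do not say whether a library stands for 1 animal, so that the p-values below measure the spread between these libraries. Both groups were untreated as far as the labels say.

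AMPK is a trimer of a catalytic alpha, a scaffolding beta and a regulatory gamma subunit, each encoded by several genes. When energy falls, binding of AMP or ADP to the gamma subunit favours phosphorylation of the activation loop of the alpha subunit by LKB1. The kinase encoded by Camkk2 phosphorylates that loop when calcium rises. In skeletal muscle AMPK is known for promoting glucose uptake and fatty acid oxidation and for restraining protein synthesis. The kinase itself is regulated mostly by phosphorylation and by nucleotides, neither of which RNA counts measure.

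Library totals ran from 7388365 to 8560244 counts. Levels are given as CPM, the counts of a gene per 1000000 counts of its library, scaled between libraries by edgeR's TMM method with factors from 0.968 to 1.037. The 14 markers of muscle fibres fixed for this purpose were all detected, with a summed level of 212400 to 233210 CPM in KO libraries and 224830 to 265400 CPM in WT libraries. Esr1, the gene knocked out, was at 2.60, 1.93 and 1.98 CPM in KO libraries, against 6.70, 5.61 and 5.58 CPM in WT libraries. All KO values of Esr1 lay below all WT values, although its adjusted p of 0.145 in edgeR's quasi-likelihood test missed the threshold of 0.05. In the authors' deposited table Esr1 had a log2 fold change of -1.43 and passed, with an adjusted p of 0.000152. The tissue was sequenced in bulk, so a change in the number of cells of a type and a change in RNA per cell cannot be told apart.

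The paralogous subunits resemble each other enough that it matters how their reads were told apart, and the longest identical stretch of each pair is therefore shown. In GENCODE M21 the longest protein-coding transcripts of Prkaa1 and Prkaa2 shared at most 35 consecutive bases, and those of Prkab1 and Prkab2 at most 23, all within coding sequence. The gamma genes shared shorter runs, of 15 bases between Prkag1 and Prkag2, 11 between Prkag1 and Prkag3, and 17 between Prkag2 and Prkag3. Below, the shared run of each alpha and beta gene is in capitals, with up to 15 coding bases on either side in lower case. The lines are 5′ to 3′ and read from the coding strand.
Prkaa1: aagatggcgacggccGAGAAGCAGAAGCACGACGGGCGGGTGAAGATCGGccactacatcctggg
Prkaa2: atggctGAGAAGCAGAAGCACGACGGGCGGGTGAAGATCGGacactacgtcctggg
Prkab1: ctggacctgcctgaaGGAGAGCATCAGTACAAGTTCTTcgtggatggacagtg
Prkab2: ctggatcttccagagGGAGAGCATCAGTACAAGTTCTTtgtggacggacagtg
A read longer than the shared run differs in at least 1 base between the paired transcripts. Neither the read length nor the handling of reads with several matches is stated in the labels or the file. Other copies of these genes in the genome were not searched.

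The catalytic subunits overlapped between genotypes. Prkaa2 (ENSMUSG00000028518), the alpha 2 gene on chromosome 4 (105029874 to 105109890, minus strand, mm10), is the catalytic form known to prevail in skeletal muscle. Its counts were 942, 748 and 738 in KO replicates 1, 2 and 3, against 833, 769 and 747 in WT replicates 1, 2 and 3. That was 97.7 ± 11.9 CPM in KO and 103.8 ± 8.52 CPM in WT (SD, n = 3 each). KO replicate 1 and WT replicate 1, at 111.5 and 111.6 CPM, were the high libraries of their groups and nearly equal, and the groups overlapped. On the log2 scale KO minus WT came to -0.09 ± 0.09 (SE), and the 95% interval ran from -0.28 to 0.11. Without KO replicate 1 it was -0.19, and edgeR's quasi-likelihood test gave a p of 0.0383 before adjustment and 0.856 after it. With any other single library left out, the unadjusted p of that test was higher, from 0.160 to 0.776.

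Prkaa1 (ENSMUSG00000050697), the widely expressed alpha 1 gene on chromosome 15 (5143861 to 5181899, plus strand), had 167, 155 and 150 counts in KO replicates 1, 2 and 3, against 118, 143 and 146 in WT replicates 1, 2 and 3. The mean was 19.0 ± 0.647 CPM in KO and 18.0 ± 1.93 CPM in WT (SD, n = 3 each). The KO values, from 18.6 to 19.8 CPM, lay inside the WT range of 15.8 to 19.6 CPM apart from KO replicate 1. The log2 difference was 0.08 ± 0.12 (SE), with an interval from -0.16 to 0.33.

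Among the scaffold subunits, Prkab1 was the member that stood out. Prkab1 (ENSMUSG00000029513) encodes beta 1, which carries the glycogen-binding module and joins the alpha and gamma subunits; it lies on chromosome 5 (116013586 to 116024508, minus strand). It had 50, 35 and 44 counts in KO replicates 1, 2 and 3, against 28, 19 and 26 in WT replicates 1, 2 and 3. All 3 KO libraries lay above all 3 WT libraries, with KO replicate 2, at 4.23 CPM, closest to WT replicate 1, at 3.75 CPM. The mean was 5.20 ± 0.871 CPM in KO and 3.21 ± 0.581 CPM in WT (SD, n = 3 each), 1.62 times the WT level. The log2 difference was 0.69 ± 0.23 (SE), and the 95% limits were 0.20 and 1.18. By edgeR's quasi-likelihood method Prkab1 did not pass, with a p of 0.00877 that became 0.989 after adjustment over all 13848 genes. Its p was number 81 of 13848 from the smallest. In the authors' deposited table Prkab1 had a log2 fold change of 0.70 with a p of 0.00464, adjusted to 1; 0 of the 9 genes passed 0.05 there, beside 0.0133% of the IDs in that table.

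Prkab2 (ENSMUSG00000038205), the beta 2 gene and the scaffold form known to prevail in skeletal muscle, lies on chromosome 3 (97658193 to 97673812, plus strand). It had 304, 303 and 270 counts in KO replicates 1, 2 and 3, against 275, 220 and 232 in WT replicates 1, 2 and 3. The mean was 35.3 ± 1.68 CPM in KO and 32.1 ± 4.11 CPM in WT (SD, n = 3 each). WT replicate 1, at 36.8 CPM, was the highest of all 6 libraries and made the groups overlap, while WT replicates 2 and 3 were below every KO library. The log2 difference was 0.14 ± 0.10 (SE), with an interval from -0.08 to 0.36. Without WT replicate 1 it was 0.25, and edgeR's quasi-likelihood test gave a p of 0.0351 before adjustment and 0.99996 after it. With any other single library left out, the unadjusted p of that test was higher, from 0.147 to 0.501.

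**Figure D1:**
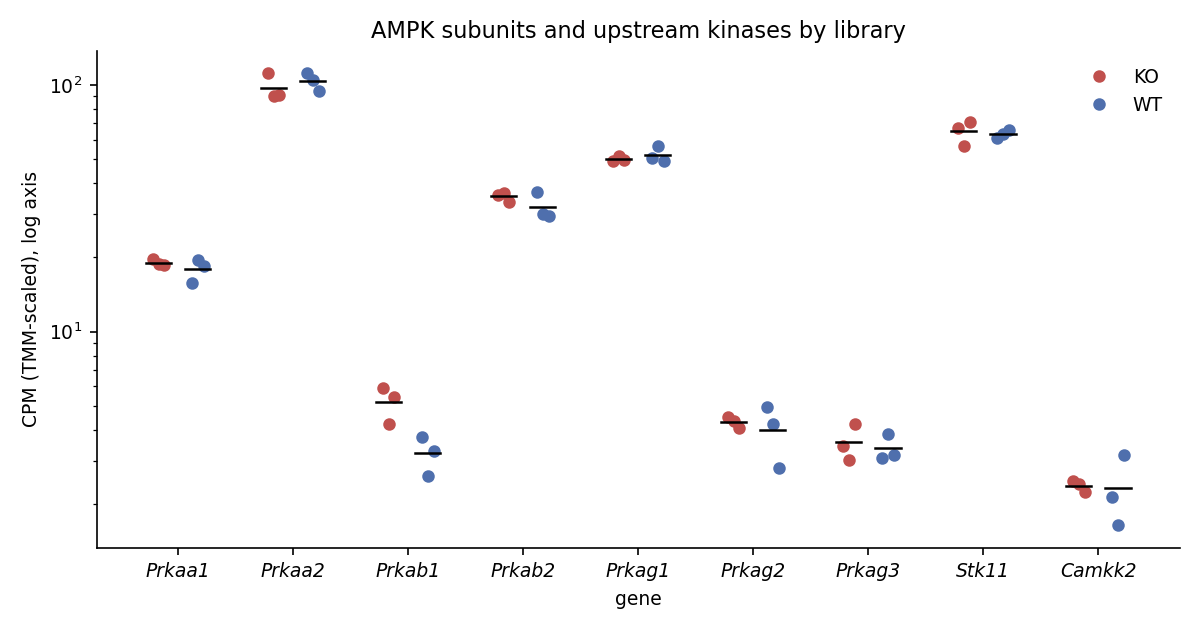
CPM, TMM-scaled and on a log axis, of each of the 9 genes in each library; points are single libraries, KO left of WT for each gene, and black lines are group means. The KO points lie wholly above the WT points for Prkab1, while the groups overlap for the other 8 genes.

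The promoters of the beta genes are shown for comparison of the pair. Whether the difference between genotypes was unlike for Prkab1 and Prkab2 was not tested, and neither was any link of these sequences to the counts. The sequences are from RefSeq on GRCm38.p6, the assembly that mm10 names, and cover only bases upstream of the first annotated transcript start. Sp1 GC boxes (GGGCGG on either strand) are in capitals.
Prkab1, chr5:116024509-116024678, minus strand: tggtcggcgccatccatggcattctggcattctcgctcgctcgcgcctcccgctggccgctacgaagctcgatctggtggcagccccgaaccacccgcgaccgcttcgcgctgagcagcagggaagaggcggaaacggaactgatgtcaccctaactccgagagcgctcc
Prkab2, chr3:97657962-97658192, plus strand: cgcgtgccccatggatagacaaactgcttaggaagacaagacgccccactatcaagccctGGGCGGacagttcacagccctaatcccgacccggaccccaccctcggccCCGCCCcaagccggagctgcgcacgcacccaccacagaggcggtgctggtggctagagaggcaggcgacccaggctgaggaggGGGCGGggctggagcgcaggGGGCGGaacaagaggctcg
The Prkab2 stretch held 4 GC boxes and the Prkab1 stretch 0. The 300-base windows around the start sites, of which the 9 genes had 11, were also searched on both strands for the full estrogen response element, made of the half-site GGTCA, 3 bases of any kind and its reverse complement TGACC, and 0 of 11 held it, as against 0.07% of 32851 promoters of that length. The half-site GGTCA, which is part of the full element, was in 3 of 11 windows and in 40.5% of all promoters. These 3 were the windows of Prkab1 and Prkag1 and another start of Prkag2, with 1 match each; the match of Prkab1 lay outside the bases printed. The GC box was in 8 of 11 windows and in 35.7% of all promoters, and the element TCAAGGTCA of estrogen-related receptors, which also contains GGTCA, was in 0 of 11 and in 0.423% of all. These are matches of letters only.

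The nucleotide-binding subunits overlapped between genotypes as well. Prkag1 (ENSMUSG00000067713), the widely expressed gamma 1 gene on chromosome 15 (98812797 to 98831521, minus strand), had 415, 428 and 403 counts in KO replicates 1, 2 and 3, against 379, 414 and 390 in WT replicates 1, 2 and 3. Its mean was 50.2 ± 1.34 CPM in KO and 52.3 ± 3.82 CPM in WT (SD, n = 3 each). The range of Prkag1 over the 6 libraries, 0.20 units of log2(CPM + 0.5), was the smallest of the 9 genes. The log2 difference of -0.06 ± 0.09 (SE) had an interval from -0.24 to 0.12. Exons of the transcript B130046B21Rik overlap 43.7% of the exonic bases of Prkag1 in GENCODE M21. The libraries did not keep strand, so reads from these bases cannot be assigned to either with certainty.

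Prkag2 (ENSMUSG00000028944), the gamma 2 gene best known from the heart, lies on chromosome 5 (24862744 to 25100642, minus strand). It had 38, 36 and 33 counts in KO replicates 1, 2 and 3, against 37, 31 and 22 in WT replicates 1, 2 and 3. WT replicate 3, at 2.79 CPM, was the low library, and WT replicate 1, at 4.96 CPM, was the highest of all, so the KO range of 4.09 to 4.50 CPM lay within the WT range. Other annotated genes overlap 14.5% of its exonic bases.

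Prkag3 (ENSMUSG00000006542), the gamma 3 gene known from fast glycolytic muscle, lies on chromosome 1 (74738922 to 74749221, minus strand). It had 29, 25 and 34 counts in KO replicates 1, 2 and 3, against 23, 28 and 25 in WT replicates 1, 2 and 3. The mean was 3.55 ± 0.604 CPM in KO and 3.36 ± 0.409 CPM in WT (SD, n = 3 each), and the groups overlapped. The log2 differences of Prkag2 and Prkag3 were 0.12 ± 0.24 and 0.08 ± 0.24 (SE), with intervals from -0.39 to 0.62 and from -0.43 to 0.59.

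Of the upstream kinases, Stk11 was well expressed and Camkk2 was the lowest member. Stk11 (ENSMUSG00000003068), which encodes LKB1, the kinase that phosphorylates the AMPK activation loop in contracting muscle, lies on chromosome 10 (80115803 to 80130682, plus strand). It had 568, 469 and 574 counts in KO replicates 1, 2 and 3, against 454, 461 and 521 in WT replicates 1, 2 and 3. The mean was 65.0 ± 7.46 CPM in KO and 63.3 ± 2.63 CPM in WT (SD, n = 3 each). KO replicate 2, at 56.7 CPM, was the lowest of the 6 libraries and KO replicate 3, at 71.1 CPM, the highest, so KO libraries bracketed all WT libraries. The log2 difference was 0.04 ± 0.09 (SE), and the interval ran from -0.16 to 0.23.

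Camkk2 (ENSMUSG00000029471), the calcium- and calmodulin-dependent upstream kinase, lies on chromosome 5 (122731170 to 122779409, minus strand). It had 21, 20 and 18 counts in KO replicates 1, 2 and 3, against 16, 12 and 25 in WT replicates 1, 2 and 3. The KO libraries were close together, from 2.23 to 2.49 CPM, and the WT libraries, from 1.64 to 3.17 CPM, lay on both sides of them. At this depth its log2 difference of 0.03 ± 0.30 (SE) had the widest interval of the 9 genes, from -0.60 to 0.65.

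Across the 9 genes, edgeR's quasi-likelihood test called 0 at an adjusted p under 0.05, and it called 0.0% of the 13848 genes tested (0 genes). At an unadjusted p under 0.05 it had 1 of 9 members with all libraries, Prkab1, beside 4.26% of all genes, 590 in number, and 1.99% with KO higher. The groups did not overlap for 1 of 9 members, again Prkab1, beside 10.4% of all genes in either direction with 4.96% higher and 5.45% lower in KO. For non-overlap, a single member is about what the share in either direction gives for a list of this length. For the unadjusted p, the share gives fewer than 1 member. Nothing is read from either count about the list. Log2 differences were above 0 for 7 members and below 0 for 2, and 49.3% of all genes were above 0. The median was 0.08 for the members and 0.00 for all genes tested. Without WT replicate 1 the median of the members was 0.01. All 9 members passed the filter on low counts. The 95% interval lay within a 1.5-fold change in either direction for 5 members, the same 5 that had at least 100 counts in every library: Prkaa1, Prkaa2, Prkab2, Prkag1 and Stk11. The interval contained 0 for 8 of 9.

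**Figure D2:**
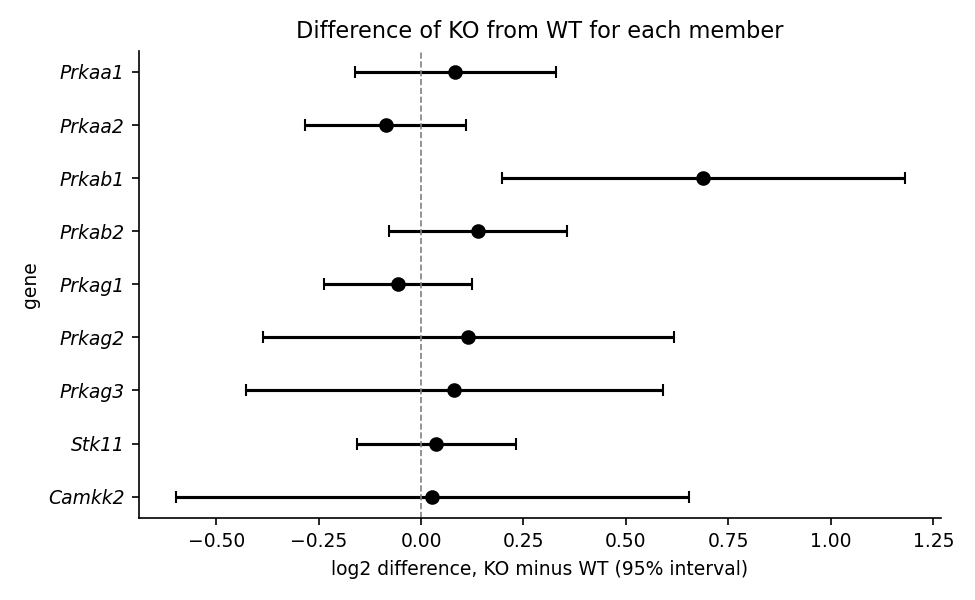
Log2 difference of KO from WT for each of the 9 genes; points are estimates of edgeR's quasi-likelihood fit, bars are 95% intervals not adjusted for multiple genes, and the dashed line marks no difference. The interval of Prkab1, from 0.20 to 1.18, is the one that does not contain 0; the intervals of Prkag2, Prkag3 and Camkk2 are wide.

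To compare levels between genes, CPM were divided by the length in kb of all annotated exons of a gene. On this scale the order was Prkag1, Stk11, Prkaa2, Prkab2, Prkaa1, Prkab1, Prkag3, Prkag2 and Camkk2. Prkag1 was at 23.1 ± 0.614 CPM per kb in KO and 24.0 ± 1.75 CPM per kb in WT, and Camkk2 was at 0.218 ± 0.0122 CPM per kb in KO and 0.212 ± 0.0713 CPM per kb in WT (SD, n = 3 each). Stk11 and Prkaa2, next to each other in the order, overlapped over the 6 libraries, and so did Prkab1 and Prkag3; each of the other neighbours was separated in all libraries. Prkab1 averaged 1.70 ± 0.284 CPM per kb in KO and 1.05 ± 0.189 CPM per kb in WT (SD, n = 3 each), so that its WT level was close to that of Prkag3, at 0.965 ± 0.164 CPM per kb in KO and 0.912 ± 0.111 CPM per kb in WT (SD, n = 3 each). The top of the order depended on the length used. With the longest coding sequence in place of all exons Prkaa2 came first, at 59.0 ± 7.19 CPM per kb in KO and 62.7 ± 5.15 CPM per kb in WT, and Prkag1 and Stk11 followed with overlapping values. With the longest transcript or the coding sequence Prkag2 came before Prkag3, and the pair overlapped. With each of these 3 lengths, Prkaa1 and Prkab1 kept places 5 and 6 and Camkk2 was last.

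**Figure D3:**
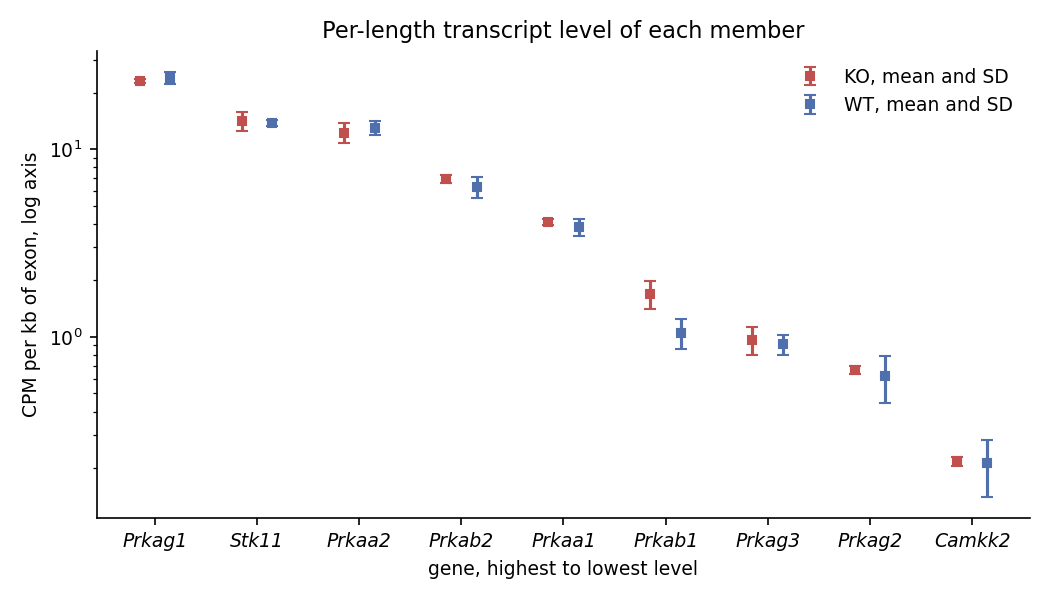
Per-length level (CPM per kb of exon, log axis) of the 9 genes in descending order; squares are means and bars SD over 3 libraries, KO left of WT. The levels run from 23.1 CPM per kb in KO and 24.0 CPM per kb in WT for Prkag1 to 0.218 CPM per kb in KO and 0.212 CPM per kb in WT for Camkk2, and the genotypes lie apart at Prkab1.

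The transcript make-up of each subunit family was compared as shares of its per-length level. Subunit proteins and assembled trimers were not measured. The alpha 2 gene Prkaa2 took 74.9% ± 1.58 of the alpha level in KO and 77.1% ± 2.98 in WT (SD, n = 3 each). By library it took 76.7%, 73.8% and 74.2% in KO replicates 1, 2 and 3, against 80.5%, 75.9% and 74.9% in WT replicates 1, 2 and 3, with overlap. The difference, -2.18 percentage points, was -0.48 without WT replicate 1. With the longest coding sequence Prkaa2 took 83.8% in KO and 85.3% in WT. The gamma level was mostly Prkag1, at 93.4% ± 0.645 in KO and 94.0% ± 0.537 in WT (SD, n = 3 each). Whether reads of the overlapping transcript B130046B21Rik entered the counts of Prkag1, and so its share, is not known. With the longest coding sequence Prkag1 took 91.1% in KO and 91.9% in WT. With counts not divided by length it took 86.5% in KO and 87.7% in WT. Prkag3 had 3.91% ± 0.691 in KO and 3.56% ± 0.199 in WT, and Prkag2 had 2.69% ± 0.161 in KO and 2.41% ± 0.639 in WT (SD, n = 3 each). The order of these minor forms depended on the length used: with the longest protein-coding transcript Prkag2 had 3.93% in KO and 3.51% in WT, above Prkag3 with 3.81% in KO and 3.48% in WT, and with the longest coding sequence Prkag2 had 4.56% in KO and 4.08% in WT.

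The beta family was the one in which the genotypes separated. Prkab2 took 78.5%, 83.9% and 78.7% of the beta level in KO replicates 1, 2 and 3, against 85.5%, 87.4% and 84.3% in WT replicates 1, 2 and 3. The mean was 80.4% ± 3.05 in KO and 85.8% ± 1.59 in WT (SD, n = 3 each), a difference of -5.39 percentage points, and the share of Prkab1 was 19.6% ± 3.05 in KO and 14.2% ± 1.59 in WT. With the longest coding sequence Prkab2 took 87.1% in KO and 90.9% in WT. All KO shares of Prkab2 lay below all WT shares, with KO replicate 2 only just below WT replicate 3. In an exact two-sided permutation test the p was 0.1, the smallest that 3 against 3 libraries can give, and adjusted over the 5 shares it was 0.5. The alpha 2 share had an exact permutation p of 0.4, and the gamma 1, gamma 2 and gamma 3 shares had 0.3, 0.6 and 0.6, each 0.6 after adjustment. The share of Prkab2 is computed from the counts of Prkab1 described above and is no separate evidence.

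**Figure D4:**
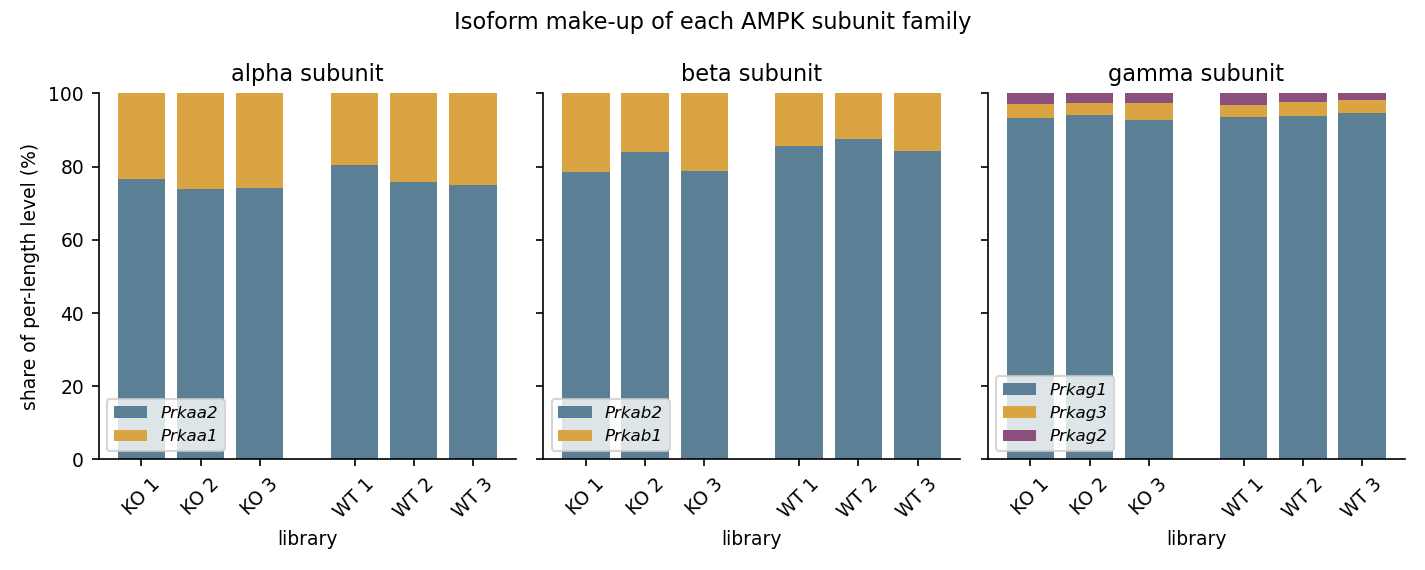
Share (%) of each gene in the per-length level of its subunit family, by library, with KO libraries left of WT libraries; each bar sums to all genes of the family. Prkab2 takes 78.5% to 83.9% of the beta bars in KO libraries and 84.3% to 87.4% in WT libraries; Prkag1 takes 92.8% to 94.1% of the gamma bars in KO libraries and 93.6% to 94.6% in WT libraries.

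The summed per-length level of each family overlapped between genotypes when all exons were used. It was 16.4 ± 1.63 CPM per kb in KO and 16.9 ± 0.888 CPM per kb in WT for alpha, 8.63 ± 0.331 CPM per kb in KO and 7.35 ± 0.956 CPM per kb in WT for beta, and 24.7 ± 0.532 CPM per kb in KO and 25.6 ± 1.93 CPM per kb in WT for gamma (SD, n = 3 each). With the length of the longest protein-coding transcript the beta sum no longer overlapped, at 9.29 to 10.02 CPM per kb in KO libraries and 7.25 to 9.15 CPM per kb in WT libraries. The beta genes had the lowest sum of the families in every library. Stk11 was at 55.9 to 76.0 times the per-length level of Camkk2 in KO libraries and at 49.7 to 91.6 times in WT libraries when all exons were used, and at 31.6 to 43.0 times in KO libraries and 28.1 to 51.8 times in WT libraries with the longest coding sequence.

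Prkab1 was also the member with the largest range over the 6 libraries, 1.05 units of log2(CPM + 0.5). Among 9750 genes with a symbol and a mean of at least 5 CPM over the 6 libraries, those whose centred log2 values lay closest to its own over the 6 libraries were Gpx8, Pld2 and 1810009A15Rik. Their root mean square differences from it were 0.115, 0.137 and 0.144 log2 units. Gpx8, a peroxidase of the endoplasmic reticulum, was at 12.3, 10.3 and 10.5 CPM in KO replicates 1, 2 and 3, against 8.17, 6.70 and 7.86 CPM in WT replicates 1, 2 and 3. Pld2 reached that mean with 4.29, 3.83 and 4.82 CPM in the WT libraries, through its higher KO values. With 6 libraries and this many genes, some genes lie close to any profile.

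Marker lists of other cell types were set beside Prkab1. The 10 fast fibre markers summed to 14542 to 15523 CPM in KO libraries and 12618 to 14047 CPM in WT libraries. These sums did not overlap, as for Prkab1. Of the 10, 4 were higher in every KO library and 0 lower, beside 4.96% higher and 5.45% lower of all genes tested. The 10 do not include the fast myosin gene Myh2, which went the other way. In KO replicates 1, 2 and 3 Myh2 was at 9694, 9360 and 9037 CPM, below all WT values. The WT values were 10352, 10296 and 10493 CPM in replicates 1, 2 and 3. The part of fast fibres in the result of Prkab1 was not tested. The 9 symbols of the macrophage list summed to 104 to 116 CPM in KO libraries and 84.4 to 113 CPM in WT libraries. Of these symbols, Adgre1 and Emr1 are the same gene, whose level entered the sum under each symbol. The summed level of 8 adipocyte markers was 290 to 326 CPM in KO libraries and 267 to 350 CPM in WT libraries. The 8 endothelial markers summed to 318 to 348 CPM in KO libraries and 345 to 364 CPM in WT libraries, and the 6 fibroblast markers to 745 to 853 CPM in KO libraries and 681 to 982 CPM in WT libraries. These 4 lists overlapped between genotypes, as did the smooth muscle, satellite cell, nerve, red blood cell, cardiac and slow fibre lists. The cardiac marker Myl7 had 0 counts in all libraries.

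The other genes of the pathway were examined in 5 lists. In edgeR's quasi-likelihood test 0 of their members were called in either direction, beside 0.0% of all genes. In the order below, 1, 1, 0, 0 and 1 of the tested genes were higher in every KO library. Lower in every KO library were 0, 1, 1, 0 and 0. Over all genes tested the shares were 4.96% higher and 5.45% lower. The genes named below were picked by their p, and nothing is read from such a gene about its list. Among the partners of LKB1 and other upstream kinases, 6 of 7 genes were tested, 4 with a log2 difference above 0 and 2 below, with a median of 0.04. Cab39l, a form of the MO25 scaffold that holds LKB1 in its active state, was at 16.0, 15.7 and 16.0 CPM in KO replicates 1, 2 and 3, against 14.1, 13.4 and 14.8 CPM in WT replicates 1, 2 and 3. Every KO value of Cab39l was above every WT value, with a log2 difference of 0.17 ± 0.12 (SE) and an unadjusted p of 0.169 in edgeR's quasi-likelihood test. Map3k7, the kinase TAK1, was at 54.1 ± 4.09 CPM in KO and 51.8 ± 1.15 CPM in WT (SD, n = 3 each). The LKB1 pseudokinase partners Strada and Stradb had log2 differences of 0.08 and -0.07.

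Of the 12 AMPK regulators, all tested, 6 were above 0 and 6 below, with a median of 0.00. Lamtor1, the lysosomal anchor of the Ragulator complex on which LKB1 and AMPK can meet, was at 35.5, 32.9 and 39.2 CPM in KO replicates 1, 2 and 3, against 28.5, 29.9 and 26.4 CPM in WT replicates 1, 2 and 3. All KO values of Lamtor1 were above all WT values. Its log2 difference was 0.34 ± 0.10 (SE). Lamtor1 did not pass in edgeR's quasi-likelihood test, at an adjusted p of 0.989 (0.00313 before adjustment). Ppm1e, a phosphatase that can dephosphorylate AMPK, was at 1.89, 2.42 and 3.10 CPM in KO replicates 1, 2 and 3, all below the WT values of 3.35, 3.28 and 3.55 CPM in replicates 1, 2 and 3, with a log2 difference of -0.46 ± 0.26 (SE). Ppm1e had few counts, from 16 in KO replicate 1 to 28 in WT replicate 3. The folliculin partner Fnip2 and the phosphatase subunit Ppp2ca had log2 differences of -0.27 and -0.11, with overlap.

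Of the 18 substrates of AMPK, all tested, 7 were above 0 and 11 below, with a median of -0.03. Their summed level was 1311 to 1406 CPM in KO libraries and 1427 to 1497 CPM in WT libraries, without overlap. Ppargc1a, the coactivator PGC-1 alpha that drives mitochondrial gene expression, was at 58.9, 65.1 and 32.7 CPM in KO replicates 1, 2 and 3, against 75.5, 78.8 and 77.7 CPM in WT replicates 1, 2 and 3. All KO values of Ppargc1a were below all WT values, with KO replicate 3 far below the other KO libraries, and the log2 difference of -0.56 ± 0.27 (SE) had an unadjusted p of 0.0885 in edgeR's quasi-likelihood test. Acacb, the muscle acetyl-CoA carboxylase that restrains fatty acid entry into mitochondria and a classical AMPK target, was at 355 ± 25.1 CPM in KO and 390 ± 17.3 CPM in WT (SD, n = 3 each). Tbc1d4, the Rab regulator of glucose transporter traffic, was at 113 ± 14.3 CPM in KO and 129 ± 13.0 CPM in WT (SD, n = 3 each). The groups overlapped for Acacb, Tbc1d4 and the CREB coactivator Crtc2, whose log2 difference was 0.49.

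Of the 13 AMPK-related kinases, which LKB1 also phosphorylates apart from Melk, 9 were tested, 4 above 0 and 5 below, with a median of -0.01. Snrk, Sik2, Sik1 and Sik3 had log2 differences of -0.15, 0.22, -0.12 and -0.08, and each overlapped between genotypes. Of the 16 enzymes of adenine nucleotides and phosphocreatine, 15 were tested, 10 above 0 and 5 below, with a median of 0.06. Their summed level was 8271 to 8771 CPM in KO libraries and 7707 to 8120.5 CPM in WT libraries, without overlap. Most of this sum came from Ckm and Ckmt2, so it says little about the other enzymes of the list. Ckmt2 averaged 1855 CPM in KO and 1691.5 CPM in WT. Apart from these enzymes and the substrates, the sums of the pathway lists overlapped. Ckm, the creatine kinase of the muscle cytosol, was at 5444, 5460 and 5268 CPM in KO replicates 1, 2 and 3, against 5079, 5155 and 4784 CPM in WT replicates 1, 2 and 3. The groups did not overlap for Ckm, with a log2 difference of 0.11 ± 0.07 (SE) that did not pass. The mitochondrial creatine kinase Ckmt2 and the AMP-cleaving ectoenzyme Nt5e had log2 differences of 0.13 and -0.32, with overlap.

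**Figure D5:**
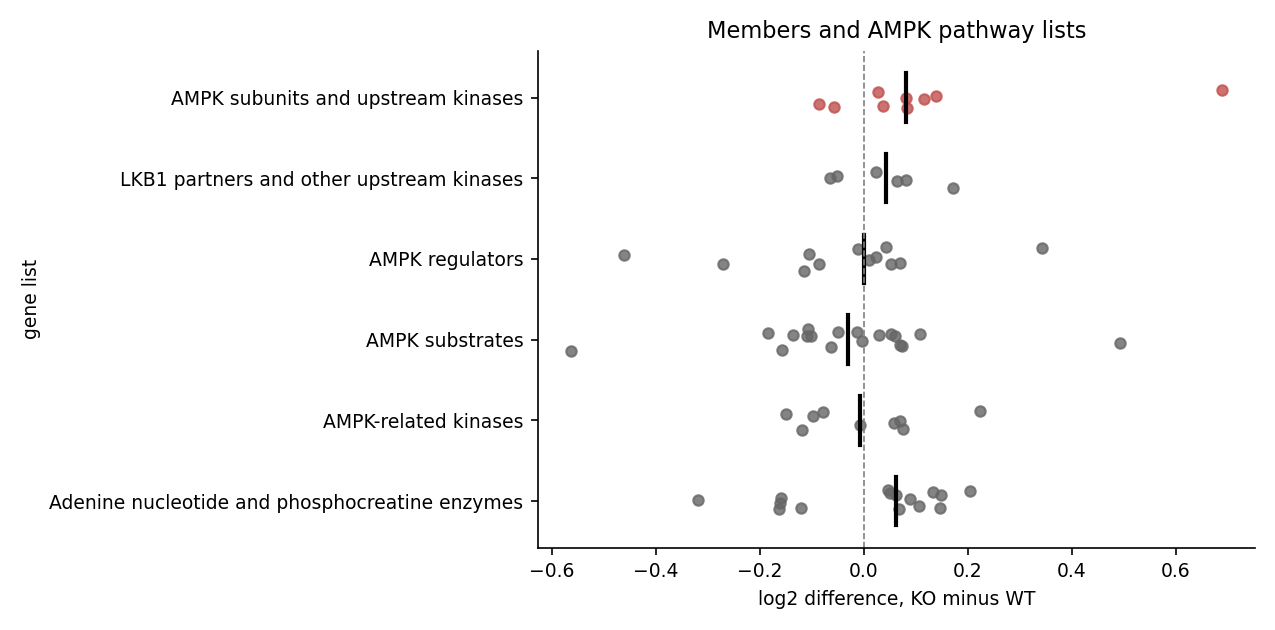
Log2 difference of KO from WT for the 9 members, in red, and for the tested genes of the 5 other pathway lists, in grey; each point is a gene, shifted at random up or down for legibility, and black lines are medians. The medians run from -0.03 for the substrates to 0.08 for the members, and Prkab1, at 0.69, is the rightmost point.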

How the data were processed

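RNA of quadriceps was sequenced from 3 KO and 3 WT libraries. The labels' protocols name Trizol for the extraction and the TruSeq RNA kit, which does not keep strand, for the libraries. TopHat 1.3.3, edgeR and mm10 are named in the submitters' processing notes, without roles. The labels and the file do not name the read counter. The deposited table holds raw counts per Ensembl gene. It also holds the authors' log2 fold changes and log2 mean abundances, and p-values and adjusted p-values that the authors deposited.

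Of 37506 rows, 29 repeated an ID with the same counts and were merged. Replicate pairs differed by more than sampling noise (chi-square per gene 3.46 to 9.57), so all libraries were kept. Genes passing filterByExpr (13848) were scaled with TMM and tested with edgeR 4.0.16 in R 4.3.3 (robust quasi-likelihood F-test, genotype alone, two-sided, Benjamini-Hochberg over all genes, threshold 0.05). SE is the size of the log2 difference over the square root of F. CPM use TMM-scaled library sizes. Likeness and the ranges of members over the 6 libraries used log2(CPM + 0.5). The script was tested on simulated data. Exon lengths came from GENCODE M21 (GRCm38), which matched 32626 IDs. Shares were compared by exact permutation tests in scipy 1.17.1. The alternatives were other scalings and filters, DESeq2 1.42.0, limma 3.58.1 voom, a replicate block, other gene lengths and leaving out each library.

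The members, the pathway and marker lists and the tests were chosen with earlier results of these data known. Named genes were all 9 members, Esr1 and the 4 genes of smallest unadjusted p in each pathway list. The 3 genes closest in pattern to the member of largest range were also named. Genes named outside this rule, Myl7, Melk, Myh2, Adgre1 and Emr1, were chosen after their values were seen. A gene that this rule selects is not reported here.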

Additional observations from a re-analysis of the deposited data

How the results depend on the processing

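No member was called under any of the 14 alternatives, and the lowest adjusted p of any member was 0.531, for Prkab1 without KO replicate 2. The log2 difference of Prkab1 stayed above 0 in all of them, from 0.56 to 0.82, with unadjusted p from 0.0039 to 0.0432. Over all genes, where edgeR's quasi-likelihood test called 0 (590 at an unadjusted p under 0.05), DESeq2 called 2, limma voom 1, and edgeR with every gene of at least 1 count 19; leaving out single libraries gave 0 to 3, the 3 without WT replicate 1. Members close to 0 changed sign when 1 library was left out, and the cause was not tested. Without KO replicate 1, Camkk2 was at -0.01; without KO replicate 3, Prkag3 was at -0.055 and Stk11 at -0.031; without WT replicate 1, Camkk2 was at -0.03 and Prkaa1 at 0.00 (-0.00016); without WT replicate 2, Prkag1 was at 0.0028 and Camkk2 at -0.17; without WT replicate 3, Prkag2 was at -0.093. Over all single omissions the ranges were -0.17 to 0.33 for Camkk2, -0.055 to 0.19 for Prkag3, -0.031 to 0.13 for Stk11, -0.00016 to 0.15 for Prkaa1, -0.10 to 0.0028 for Prkag1, -0.093 to 0.30 for Prkag2, -0.19 (without KO replicate 1) to -0.03 (without KO replicate 2) for Prkaa2 and 0.08 (without WT replicate 3) to 0.25 (without WT replicate 1) for Prkab2. The members' median ran from 0.01 (without WT replicate 1) to 0.11.

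The beta 2 share stayed lower in KO, by -7.15 to -4.47 percentage points over single omissions. The difference was -6.70 with the longest protein-coding transcript, -3.75 with the longest coding sequence and -3.74 with counts not divided by length. The alpha 2 share ran from -3.26 (without WT replicate 3) to -0.48 (without WT replicate 1) and the gamma 1 share from -0.98 to -0.33 percentage points. The gamma 2 share ran from -0.021 to 0.62 percentage points and the gamma 3 share from -0.014 to 0.68 over single omissions, changing sign without WT replicate 3 and without KO replicate 3. With the replicate number as a block in edgeR's quasi-likelihood test, the median was 0.08, Prkab1 had an adjusted p of 0.908 and 0 genes were called. For the beta 2 share an exact sign-flip test gave a p of 0.25, the smallest that 3 pairs can give. Deviations of same-numbered KO and WT libraries correlated at -0.012, 0.227 and -0.016 over 10005 genes, so the numbers were not taken as pairs. Depth limits Prkab1, Prkag2, Prkag3 and Camkk2, which had fewer than 60 counts in every library.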
